A study of Cricetiscus sungorus with 12 samples.

Results

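Nicotinic acetylcholine receptor subunits were followed in the hypothalamic mRNA of 12 Djungarian hamsters (*Phodopus sungorus*). The members were 10 records of 17191 in the deposited tables, picked by their mouse GeneIDs: *Chrna2* (110902), *Chrna3* (110834), *Chrna4* (11438), *Chrna5* (110835), *Chrna6* (11440), *Chrna7* (11441), *Chrnb1* (11443), *Chrnb2* (11444), *Chrnb3* (108043) and *Chrnb4* (108015). All 10 had reads in all 12 samples and entered every comparison. The family was proposed with results of the group comparisons known, so the group differences of its members are a description and not independent evidence. Each hamster gave 1 mRNA library, made from a trimmed block of the whole hypothalamus of an adult hamster at about ZT 4, that is, 4 h after lights on. The groups held 4 hamsters each. LP-NT hamsters had stayed in long photoperiod with 16 h of light and 8 h of darkness and were normothermic, with 2 males and 2 females. SP-NT hamsters had been acclimated to short photoperiod with 8 h of light and 16 h of darkness and were normothermic at sampling, also with 2 males and 2 females. SP-HT hamsters had the same short photoperiod and are labelled as sampled in spontaneous torpor, with hypothermia, and comprised 3 males and 1 female. All hamsters of the short photoperiod carried a telemetry transmitter and had shown torpor before, while LP-NT hamsters carried none, so that photoperiod cannot be told apart from this history.

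Nicotinic receptors are ligand-gated cation channels. A ring of subunits encloses the pore, and acetylcholine binds where an alpha subunit meets its neighbour. *Chrna4* and *Chrnb2* encode the most widespread receptor of the brain, *Chrna7* forms receptors on its own, *Chrna3* and *Chrnb4* are best known from autonomic ganglia and the habenula, and *Chrna6* and *Chrnb3* from catecholamine neurons and the visual pathway. *Chrna5* is an accessory subunit that needs partners, *Chrna2* is restricted to few brain regions in rodents, and *Chrnb1* is the beta subunit of the receptor of skeletal muscle. In the hypothalamus, nicotinic signalling is known to act on feeding and on body temperature.

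Summed over all records, a sample held between 20204979 and 24186918 expected counts. LP-NT replicate 01 stood apart from its group, since its chi-square against the 3 other LP-NT samples over all genes was 26.8 to 37.7 times the degrees of freedom, beside 6.79 to 21.2 times for every other pair within a group. SP-NT replicate 19, labelled male, had 0 counts of a pair of records that set the labelled sexes apart elsewhere. In these records the 6 other males had between 979 and 1699 and between 342 and 462 counts and the 5 females at most 5 and 0 counts. The record matched to *Rbm3-ps*, a relative of the gene of a protein known to be induced by cold, was lower in the samples labelled SP-HT. It had 15.1 ± 1.5 CPM in SP-NT and 3.10 ± 0.671 CPM in SP-HT (SD over 4 hamsters each, log2(FC) = -2.28, edgeR adjusted p = 0.000214). LP-NT had 14.9 ± 3.97 CPM (SD, n = 4), close to SP-NT, so that the samples labelled SP-HT stood apart from both groups labelled normothermic. The paper lists *Rbm3-ps* as upregulated in torpor, the opposite of the direction found here. The balance over all genes was opposite too. The paper, with DESeq2, counted more genes up than down in torpor. Here edgeR called 82 genes higher and 307 lower in the samples labelled SP-HT, against SP-NT. Directions for torpor below may thus be opposite to those in the paper, and the reason was not tested. Every direction for torpor below is given as the samples are labelled. Of the markers of the dissected tissue, *Avp*, *Trh* and *Pomc* could be named, and they had between 81.8 and 312.2, between 30.9 and 63.3 and between 10.6 and 52.4 CPM in the 12 samples. Markers of other tissues, such as habenula and muscle, were not analysed here, and their part in the results below was not tested.

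The levels of the subunits were compared per length, as the deposited TPM, which are scaled for gene length and for the depth of the sample. *Chrna4* had the highest mean level, 71.1 ± 11 TPM (SD, n = 12), and *Chrnb2*, its usual partner, followed with 63.9 ± 5.68 TPM (SD, n = 12). They made up 27.1% and 24.3% of the summed TPM of the 10 subunits. *Chrna2* had 29.7 ± 12.2 TPM (SD, n = 12), *Chrna7* 25.8 ± 4.35 TPM and *Chrna6* 21.1 ± 9.52 TPM. The levels of *Chrna3* and *Chrnb4*, the pair of the ganglionic type, were 16.6 ± 4.76 and 11.8 ± 2.09 TPM. *Chrnb1* had 9.65 ± 5.31 TPM, *Chrnb3* 8.58 ± 4.58 TPM and the accessory subunit *Chrna5* the lowest level, 4.30 ± 1.01 TPM (SD, n = 12 for each). This is the order of means pooled over the 3 groups, and it was not the same within each group. In SP-NT the mean of *Chrna2*, 21.1 TPM, was below those of *Chrna7*, 27.0 TPM, and *Chrna3*, 21.5 TPM. In SP-HT the mean of *Chrnb1*, 15.9 TPM, was above that of *Chrnb4*, 11.9 TPM. The share of *Chrna2* in the summed TPM was 8.15% in SP-NT and 14.0% in SP-HT, and that of *Chrnb1* was 2.24% in LP-NT and 5.64% in SP-HT.

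**Figure D1:**
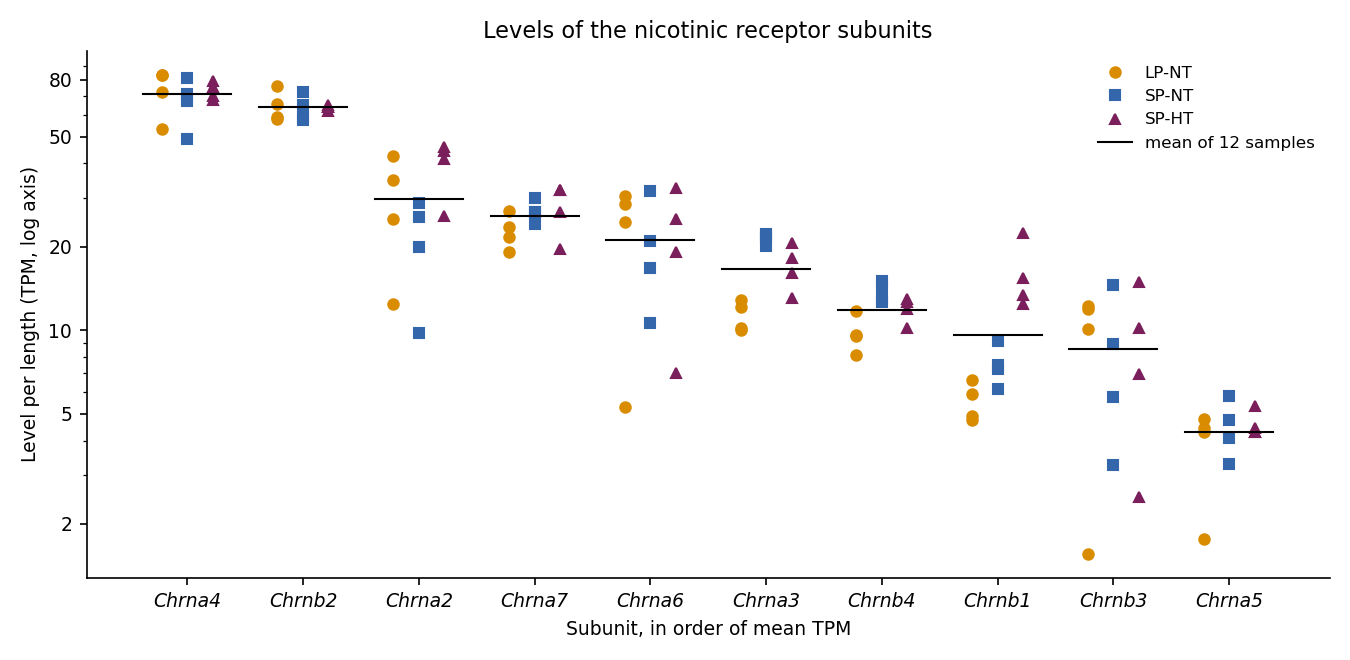
Level per length (TPM, log axis) of each subunit in every sample, with symbols for the 3 groups and a line at the mean of 12 samples, in the order of the means. *Chrna4* and *Chrnb2* lie between 48.9 and 83.5 TPM in every sample, while *Chrna6* and *Chrnb3* span most of the plot, from 5.30 to 32.6 and from 1.56 to 14.9 TPM.

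Of the 9 pairs of neighbours in this order, 4 differed beyond the spread over samples. The test was a two-sided exact sign-flip permutation test on log2 TPM, adjusted by Benjamini-Hochberg over the 9 pairs. The pairs and their direction were taken from the same 12 samples, pooled over the 3 groups, so the p-values are a description. *Chrnb2* exceeded *Chrna2* by 1.24 ± 0.660 on the log2 scale (SD, n = 12, adjusted p = 0.0022 by the exact permutation test) and *Chrna3* exceeded *Chrnb4* by 0.45 ± 0.224 (SD, n = 12, adjusted p = 0.0022 by the same test), each in 12 of 12 samples. *Chrna4* exceeded *Chrnb2* by 0.14 ± 0.169 in 10 of 12 samples (adjusted p = 0.045 by the exact permutation test), which became 0.0501 when CPM per kb of the mean effective length replaced TPM. *Chrnb3* exceeded *Chrna5* by 0.76 ± 0.853 in 9 of 12 samples (adjusted p = 0.045 by the exact permutation test). These last 2 differences lost the threshold on leaving out any of 10 and any of 9 samples in turn, and the first 2 on leaving out none. *Chrna2*, *Chrna7*, *Chrna6* and *Chrna3* could not be told apart from their neighbours in this stretch (adjusted p between 0.177 and 0.723), nor could *Chrnb4* from *Chrnb1* (adjusted p = 0.0747) or *Chrnb1* from *Chrnb3* (adjusted p = 0.499).

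The summed level of the 10 subunits was 251 ± 26.4 TPM in LP-NT, 254 ± 19.6 TPM in SP-NT and 283 ± 17.6 TPM in SP-HT (SD, n = 4 each). The samples ranged from 220.5 to 284.8, from 225.0 to 266.7 and from 263.0 to 304.3 TPM, so that each group overlapped with both others.

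The comparison of SP-NT with LP-NT asks which genes differ with photoperiod in normothermic hamsters. Counts are given as CPM, scaled for depth by TMM factors of the 12 samples. The log2(FC), its standard error (SE) and its p came from the quasi-likelihood test of edgeR, adjusted by Benjamini-Hochberg over all genes tested. *Chrna3* was the member that differed. It had 12, 13.1, 11.5 and 14.6 CPM in LP-NT replicates 01, 02, 03 and 05, and 22.1, 24.2, 24.2 and 24.4 CPM in SP-NT replicates 19, 36, 37 and 38. Every SP-NT sample lay above every LP-NT sample, and the 4 SP-NT samples lay closer together than those of LP-NT. The log2(FC) was 0.89 (SE 0.0923, n = 4 against 4, edgeR adjusted p = 0.00576), a 1.85-fold higher expression in SP-NT. A difference in the number of cells expressing the gene and a difference in RNA per cell cannot be told apart in these tissue blocks. Of the 10 subunits 1 passed the threshold and it was higher, beside 6 of 16199 genes, 0.037%, in both directions. In that direction it was 1 gene, 0.00617%, which was *Chrna3* itself, and 5 genes, 0.0309%, were lower. On leaving out each sample in turn, the log2(FC) of *Chrna3* was between 0.84 and 0.96 and passed in all 8 cases (edgeR adjusted p up to 0.0453). It was 0.86 (edgeR adjusted p = 0.0129) without LP-NT replicate 01 and 0.92 (edgeR adjusted p = 0.0208) without SP-NT replicate 19.

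*Chrnb4* was the other subunit whose groups did not overlap. Its values were 12.5, 15.3, 15.3 and 18.3 CPM in LP-NT and 21.9, 20.6, 22.7 and 27.8 CPM in SP-NT. All SP-NT samples were thus above all LP-NT samples, as in 1.72% of all genes tested, in that direction. The log2(FC) of 0.60 (SE 0.129, n = 4 against 4) did not pass in edgeR (adjusted p = 0.498), while DESeq2 gave an adjusted p of 0.0124 and called 33 genes, 0.212% of those it tested. With an offset for effective length the log2(FC) of *Chrnb4* was 0.47 (edgeR adjusted p = 0.732). The proportion of *Chrna3* to *Chrnb4* separated the photoperiods as TPM but not as CPM. The TPM ratio of *Chrna3* to *Chrnb4* ranged from 1.07 to 1.26 in LP-NT and from 1.41 to 1.70 in SP-NT, and was between 1.28 and 1.58 in SP-HT. TPM are scaled by effective length, and the mean effective length of *Chrnb4* was larger in SP-NT than in LP-NT. These lengths overlapped, from 4026 to 4513 bases in LP-NT and from 4258 to 5179 bases in SP-NT. Their difference did not pass the threshold (unadjusted p = 0.109 by limma on log2 length). In CPM the proportions of the groups overlapped. SP-NT replicate 38 had 24.4 CPM of *Chrna3* beside 27.8 CPM of *Chrnb4*, and LP-NT replicate 01 had 12 beside 12.5 CPM.

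The other 8 subunits did not pass the threshold for photoperiod (edgeR adjusted p between 0.913 and 0.973). *Chrnb1* had 2.64 ± 0.405 CPM in LP-NT and 3.44 ± 0.491 CPM in SP-NT (SD, n = 4 each), a log2(FC) of 0.38 with a 95% interval from 0.0022 to 0.76 (unadjusted p = 0.0489 in edgeR). *Chrna7*, the subunit that forms receptors alone, had a log2(FC) of 0.21 with an interval from -0.026 to 0.45. The log2(FC) of *Chrna5* was 0.23, with an interval from -0.40 to 0.86, and became -0.00 without LP-NT replicate 01, where the count was lowest. The brain-wide pair differed little. *Chrna4* had a log2(FC) of -0.15 with an interval from -0.48 to 0.19, and *Chrnb2* one of -0.11 with an interval from -0.28 to 0.061. The intervals of *Chrna2*, *Chrna6* and *Chrnb3* were wide, from -1.42 to 0.33, from -1.15 to 0.84 and from -1.37 to 1.08. In all, 5 of 10 subunits had a log2(FC) above 0, with a median of 0.05, beside 7972 of 16199 genes and a median of -0.00.

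**Figure D2:**
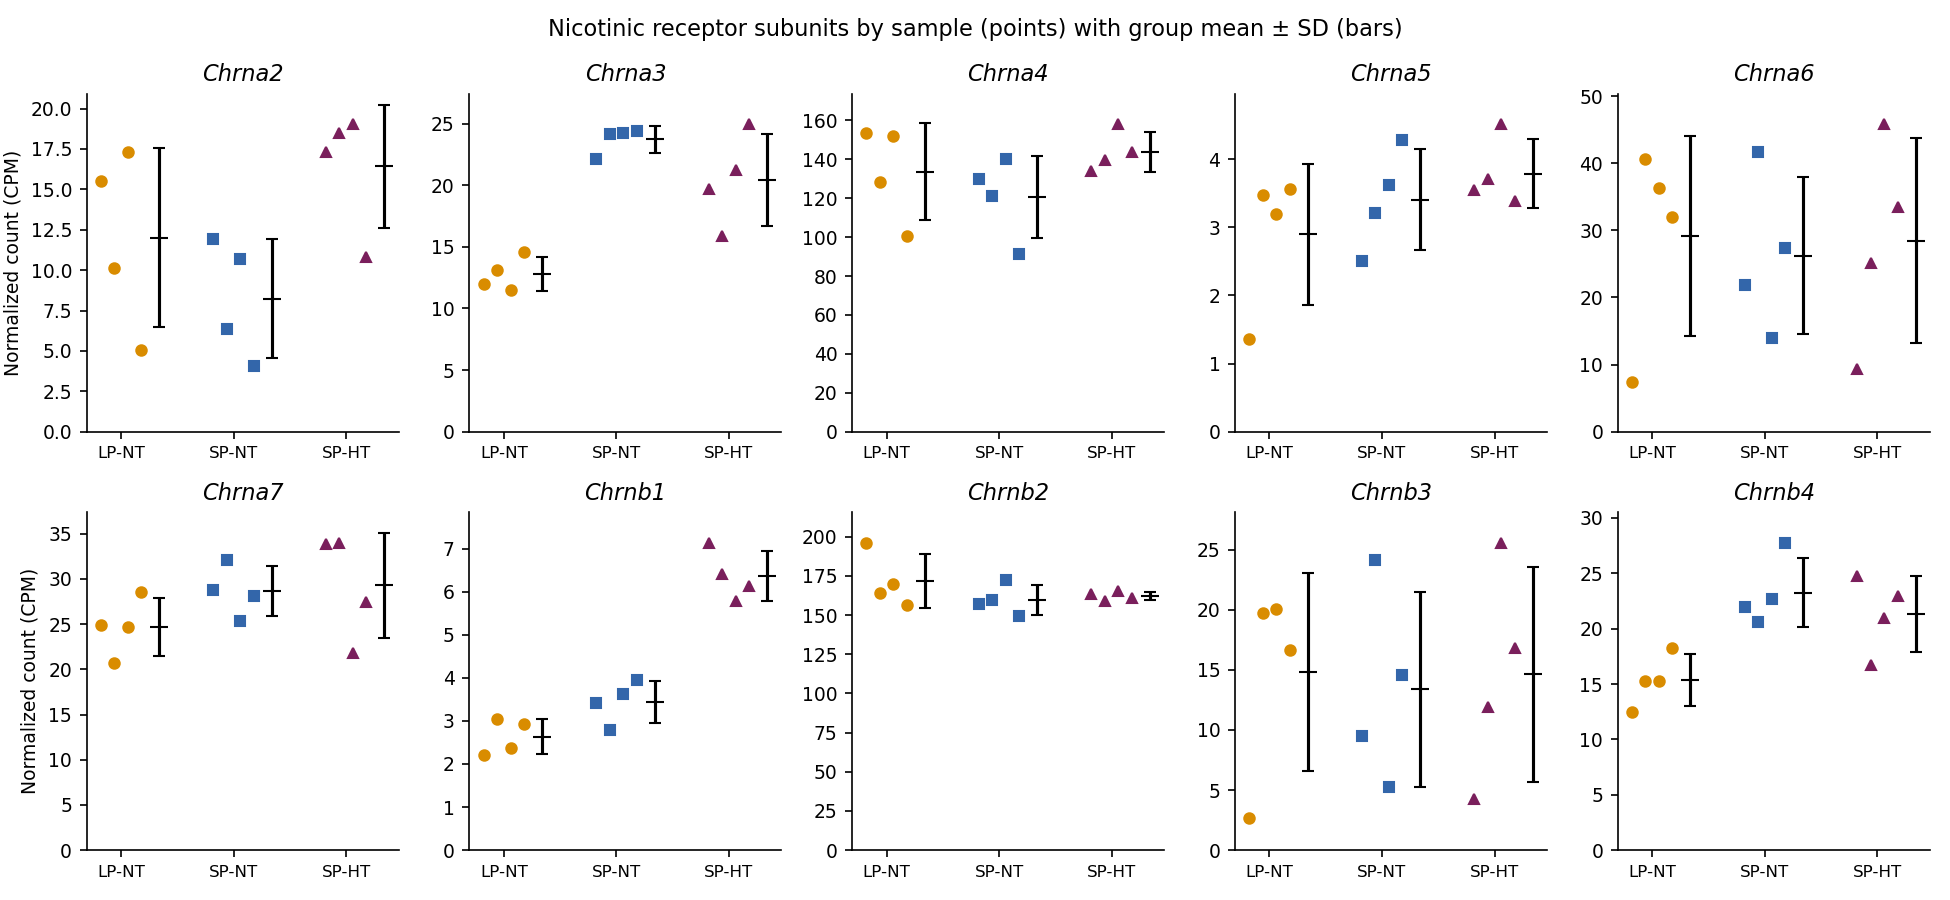
Normalized counts (CPM, y axis from 0) of the 10 subunits in each hamster of LP-NT, SP-NT and SP-HT, 1 panel per subunit, with the group mean and SD as bars beside the points. *Chrna3* separates LP-NT (11.5 to 14.6) from SP-NT (22.1 to 24.4), *Chrnb1* separates SP-HT (5.78 to 7.14) from the other groups (2.22 to 3.95), and *Chrna6* and *Chrnb3* scatter widely in every group.

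The comparison of SP-HT with SP-NT asks which genes differ with torpor in short photoperiod. Here *Chrnb1*, the subunit of the muscle type, was the member that differed. Its values were 3.41, 2.79, 3.63 and 3.95 CPM in SP-NT and 7.14, 6.41, 5.78 and 6.13 CPM in SP-HT replicates 02, 10, 26 and 33. Every sample labelled SP-HT was above every SP-NT sample. The log2(FC) was 0.88 (SE 0.140, n = 4 against 4, edgeR adjusted p = 0.0124), which is 1.85-fold. The expected counts behind it were low, between 67 and 98 in SP-NT and between 123 and 163 in SP-HT. On leaving out each sample in turn, the log2(FC) of *Chrnb1* stayed between 0.80 and 0.96 and passed in all 8 cases (edgeR adjusted p between 0.0242 and 0.0436), with 0.88 and 0.0436 without SP-NT replicate 19. The 1 subunit called, which was higher, stood beside 389 of 16195 genes called, 2.4%, of which 82, 0.506% of those tested, were higher in the samples labelled SP-HT and 307, 1.9%, were lower. Groups without overlap were seen in that direction in 4.74% of all genes and in the lower direction in 7.39%. DESeq2 also called *Chrnb1* (adjusted p = 1.5e-05), beside 6.96% of the genes it tested.

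*Chrna2* had 11.9, 6.33, 10.7 and 4.08 CPM in SP-NT and 17.3, 18.5, 19.0 and 10.8 CPM in SP-HT. The groups overlapped through SP-HT replicate 33. Its log2(FC) of 1.00 (SE 0.294, n = 4 against 4) did not pass (edgeR adjusted p = 0.104, DESeq2 adjusted p = 0.0911). *Chrna4* had a log2(FC) of 0.25 with a 95% interval from 0.0066 to 0.50 (edgeR adjusted p = 0.262). The records of *Chrna2* and *Chrna4* contain transcripts of a shared assembled gene and had fractional counts, so their reads may be split between them. Their log2 CPM had r = 0.906 over the 12 samples, given as a description. The record of *Chrnb2* likewise shared an assembled gene with a record outside the family, GeneID 70093, and had fractional counts. Its level may thus hold split reads too.

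*Chrna3*, the subunit called for photoperiod, had 19.7, 15.9, 21.2 and 24.9 CPM in SP-HT. These values reach from above the highest LP-NT sample to above the highest SP-NT sample, and the log2(FC) against SP-NT was -0.22 with an interval from -0.48 to 0.044 (edgeR adjusted p = 0.356). *Chrnb4* had 24.7, 16.7, 21.0 and 23.0 CPM in SP-HT and a log2(FC) of -0.12 with an interval from -0.41 to 0.16. *Chrnb2* varied least, with 159 to 165 CPM in SP-HT, 149 to 172 CPM in SP-NT and a log2(FC) of 0.02 with an interval from -0.089 to 0.13. The log2(FC) of *Chrna7* was 0.03 with an interval from -0.26 to 0.32, and that of *Chrna5* was 0.15 with an interval from -0.25 to 0.55. *Chrna6* and *Chrnb3* had log2(FC) of 0.11 and 0.12, and intervals from -0.80 to 1.03 and from -0.99 to 1.23, which cover differences in either direction. Of the 10 subunits, 8 had a log2(FC) above 0, with a median of 0.12, beside 8006 of 16195 genes and a median of -0.00.

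The comparison of SP-HT with LP-NT shares its samples with the 2 comparisons above and adds no independent evidence. For *Chrnb1*, all SP-HT samples lay above all LP-NT samples (2.22, 3.04, 2.37 and 2.92 CPM), with a log2(FC) of 1.28 (SE 0.156, n = 4 against 4, edgeR adjusted p = 0.00792), which is 2.42-fold. It passed on leaving out each sample, with 1.2 (edgeR adjusted p = 0.00956) without LP-NT replicate 01. *Chrna3* had a log2(FC) of 0.68 (SE 0.140, n = 4 against 4, edgeR adjusted p = 0.0464) and its groups did not overlap either. This call was lost with an offset for effective length (edgeR adjusted p = 0.0882), with sex as a covariate (edgeR adjusted p = 0.0534) and on leaving out any of 7 of the 8 samples. Without LP-NT replicate 01, 02, 03 or 05 the edgeR adjusted p was 0.0743, 0.109, 0.118 or 0.0673, and without SP-HT replicate 02, 26 or 33 it was 0.105, 0.112 or 0.113, while it was 0.0433 without SP-HT replicate 10. These 2 subunits, both higher, stood beside 221 of 16157 genes called, 1.37%, of which 57, 0.353% of those tested, were higher and 164, 1.02%, lower. Groups without overlap were seen in 3.81% of all genes in the higher and in 6.83% in the lower direction, and DESeq2 called 4.74% of the genes it tested. *Chrnb4* had a log2(FC) of 0.48 (edgeR adjusted p = 0.139, DESeq2 adjusted p = 0.037), and the 7 other subunits had edgeR adjusted p between 0.452 and 0.994. A log2(FC) above 0 was found for 7 of 10 subunits, with a median of 0.32, beside 8050 of 16157 genes and a median of -0.00.

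**Figure D3:**
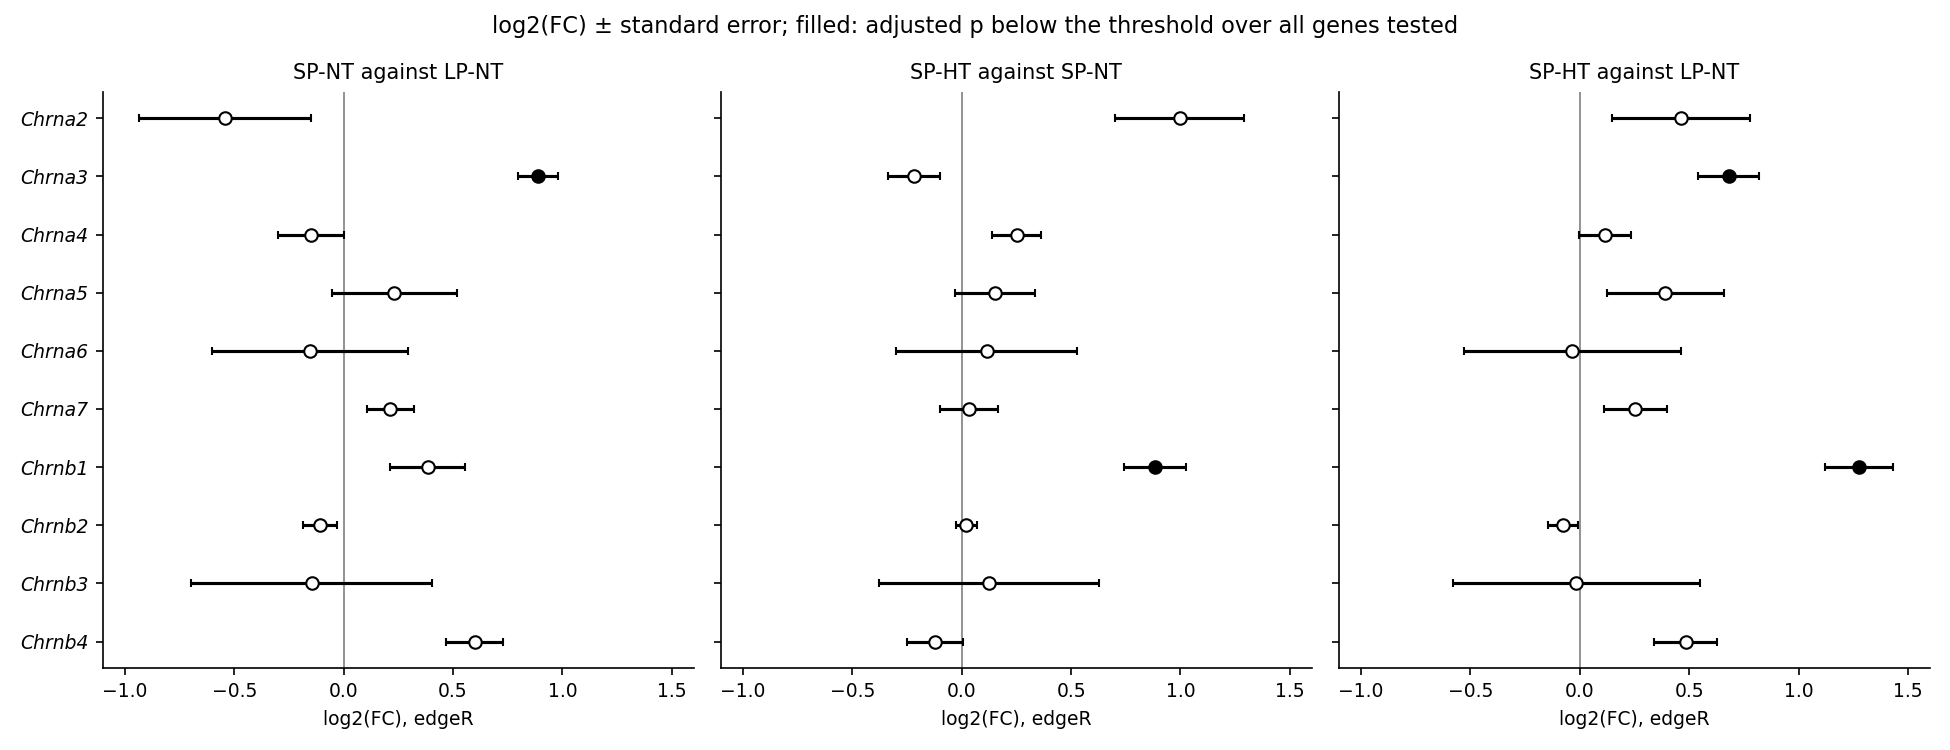
The log2(FC) of each subunit in the 3 comparisons (x axis, with the SE as bars), filled where edgeR's adjusted p over all genes passed the threshold. *Chrna3* is filled for SP-NT against LP-NT (0.89), *Chrnb1* for SP-HT against SP-NT (0.88), and both for SP-HT against LP-NT (0.68 and 1.28).

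The effective length of a record averages its transcripts by abundance, so it moves when the mix of transcripts changes. It was not used to pick the subunits. By limma on log2 length, none of the 10 subunits passed the threshold for photoperiod (adjusted p = 1.00 for each, unadjusted p between 0.109 and 0.937) or in SP-HT against SP-NT (adjusted p between 0.212 and 0.927) or LP-NT (adjusted p between 0.175 and 0.984). At unadjusted p under 0.05 by limma there were 0, 4 and 4 of the 10 subunits in the 3 comparisons. Beside them stood 572 of 12318, 1537 of 12289 and 1473 of 12213 genes tested. The subunits were *Chrna3*, *Chrna4*, *Chrna5* and *Chrna7* in SP-HT against SP-NT, and *Chrna4*, *Chrna5*, *Chrna7* and *Chrnb4* in SP-HT against LP-NT. *Chrna5* had 2218 ± 22.5 bases in SP-HT beside 2128 ± 42.7 in SP-NT and 2085 ± 60 in LP-NT, and *Chrna7* 2868 ± 47.7 bases beside 2968 ± 19.6 and 2970 ± 33.8 (SD, n = 4 each). The mean length of *Chrna4* was 5304 ± 40.9 bases in SP-HT beside 5057 ± 157 in SP-NT and 5023 ± 201 in LP-NT, that of *Chrna3* was 3246 ± 123 bases beside 3087 ± 29.6 in SP-NT, and that of *Chrnb4* was 4811 ± 394 bases beside 4324 ± 211 in LP-NT (SD, n = 4 each). Over all genes tested, limma called 0 of 12318, 16 of 12289, 0.13%, and 12 of 12213, 0.0983%. The record of *Chrnb1* joined 13 transcripts, the most of the 10, and that of *Chrnb3* joined 2, the fewest. For *Chrnb1*, SP-HT replicate 33 had an effective length of 760 bases, while SP-HT replicates 02, 10 and 26 had 1251, 1278 and 1223 bases, and its level was 22.4 TPM beside 15.4, 13.4 and 12.5 TPM. The higher level of *Chrnb1* in SP-HT did not rest on this sample, since the log2(FC) against SP-NT was 0.90 without it (edgeR adjusted p = 0.0281).

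The differences between hamsters of 1 group were much larger for some subunits than for others. The SD of log2 CPM within groups was 1.15 for *Chrnb3* and 0.95 for *Chrna6*, beside a median of 0.13 over 12904 genes with a mean of at least 50 counts, and exceeded that of 99.8% and 99.6% of these genes. *Chrna2* with 0.65 and *Chrna5* with 0.42 were above 98.9% and 96.4% of genes. *Chrnb2* had an SD of 0.10, above 25.7% of genes, while *Chrna3*, *Chrna4*, *Chrna7*, *Chrnb1* and *Chrnb4* were between 0.18 and 0.23.

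**Figure D4:**
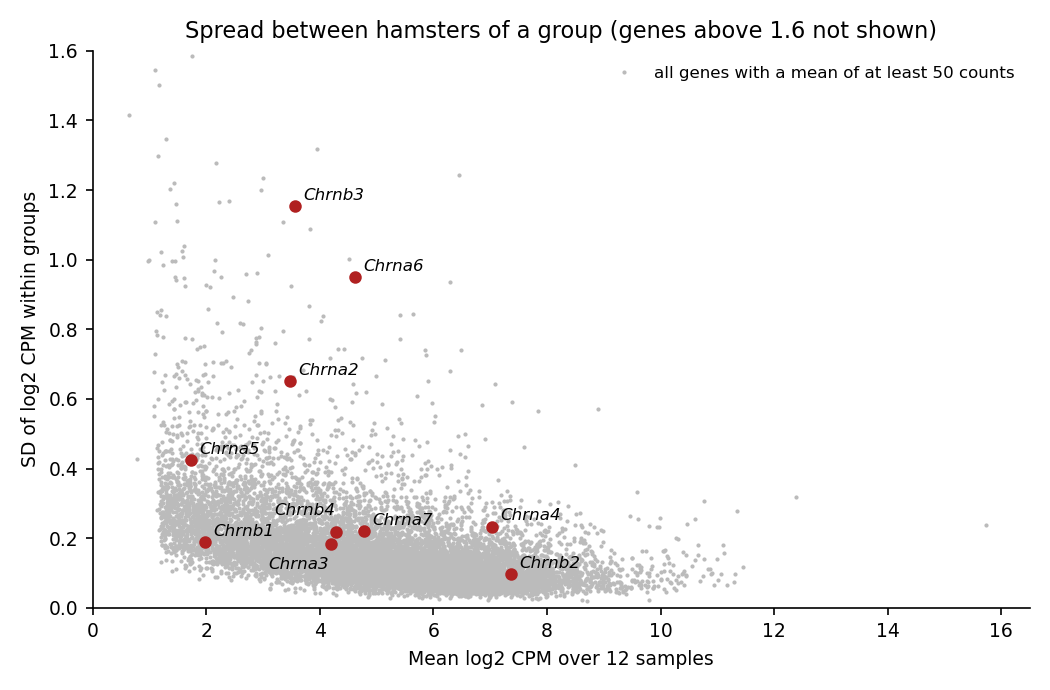
SD of log2 CPM within groups (y axis) against mean log2 CPM over 12 samples (x axis) for genes with a mean of at least 50 counts (grey) and the 10 subunits (red). *Chrnb3* (1.15), *Chrna6* (0.95) and *Chrna2* (0.65) lie far above the bulk of genes, whose median is 0.13, and *Chrnb2* (0.10) lies within it.

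*Chrna6* and *Chrnb3*, which are neighbouring genes in mouse and encode partners in the same receptors, varied together. *Chrna6* had 7.47, 40.7, 36.4 and 32.1 CPM in LP-NT, 21.9, 41.6, 13.9 and 27.4 CPM in SP-NT and 9.37, 25.2, 45.8 and 33.4 CPM in SP-HT. *Chrnb3* had 2.67, 19.7, 20.1 and 16.7 CPM in LP-NT, 9.53, 24.1, 5.27 and 14.6 CPM in SP-NT and 4.25, 11.9, 25.6 and 16.8 CPM in SP-HT. LP-NT replicate 01 was lowest and SP-HT replicate 26 highest for both, and each group held samples with low and with high values, so that the range over 12 samples was 6.14-fold for *Chrna6* and 9.58-fold for *Chrnb3*. Their log2 CPM had Pearson's r = 0.994 over 12 samples (permutation p = 1e-05, the smallest that 100000 resamples can give, adjusted p = 5e-05 over 5 relations) and Spearman's rho = 0.993 (permutation p = 1e-05, adjusted p = 5e-05). As deviations from the group means r was 0.994, and without LP-NT replicate 01 and SP-HT replicate 02, the 2 samples farthest from the median, it was 0.992. Each was the record most like the other among 12903 genes. The TPM ratio of *Chrna6* to *Chrnb3* stayed between 2.17 and 3.40. Next after *Chrnb3* in likeness to *Chrna6* came GeneIDs 13798 and 13162, with r = 0.990 and 0.988, given as a description. GeneID 13162 was also second in likeness to *Chrnb3* (r = 0.993). In all, 19 genes had r over 0.9 with *Chrna6*. These GeneIDs were not named here. Whether the blocks of the hamsters differed in the tissue they held was not tested.

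**Figure D5:**
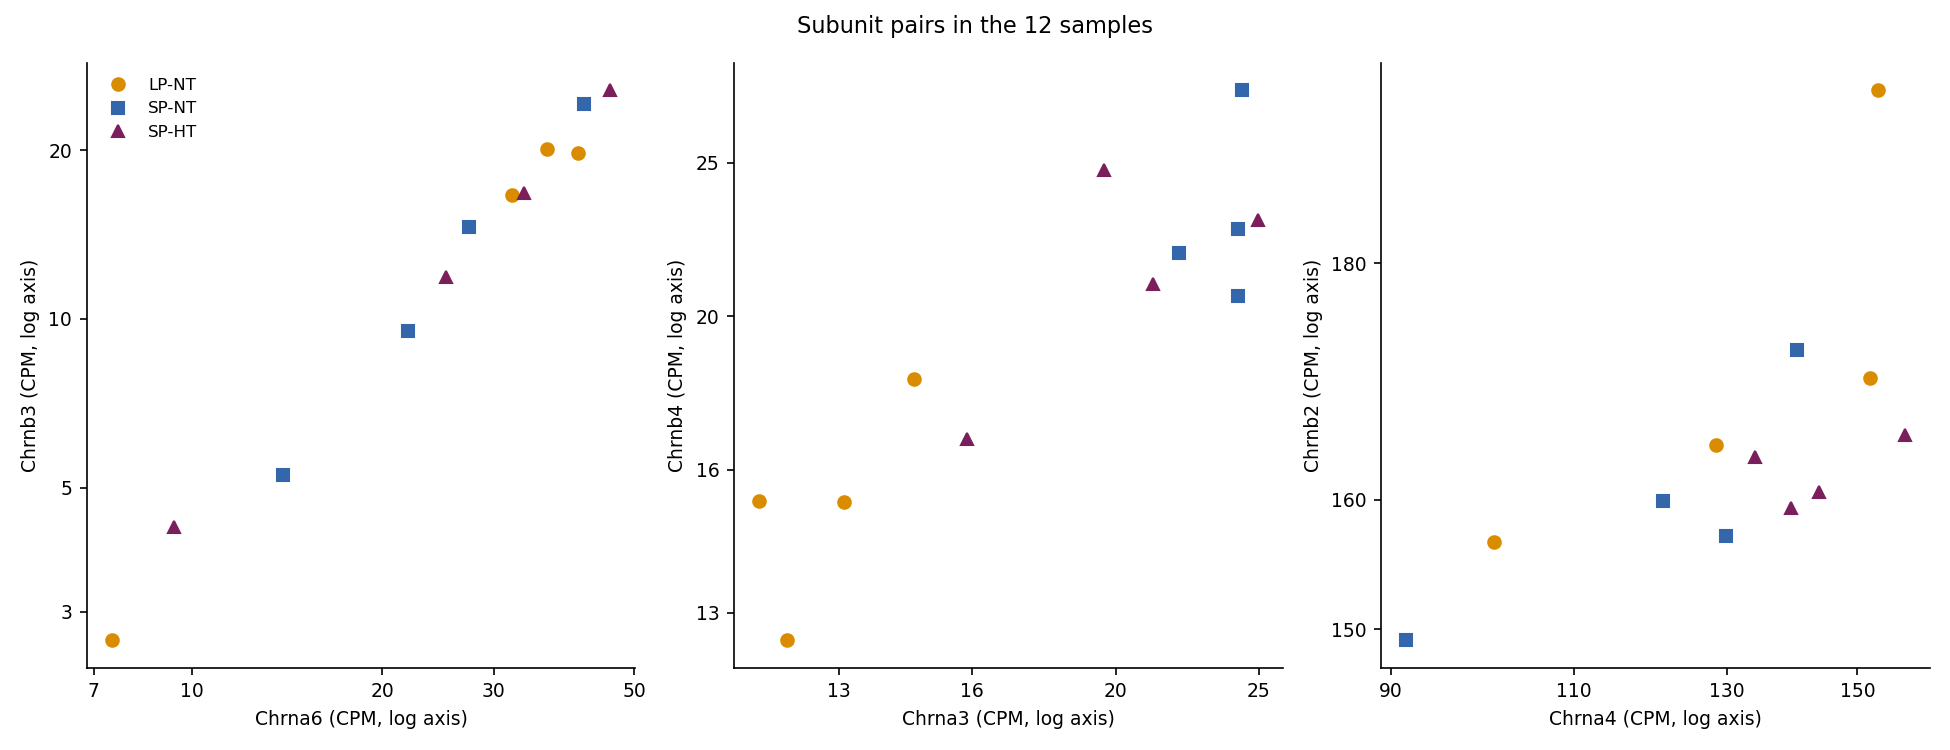
Normalized counts (CPM, log axes) of *Chrna6* and *Chrnb3*, of *Chrna3* and *Chrnb4*, and of *Chrna4* and *Chrnb2* in the 12 hamsters, with symbols for the groups. The points of *Chrna6* and *Chrnb3* lie along a line in all 3 groups (r = 0.994). LP-NT lies below both other groups in *Chrna3*, while in *Chrnb4* it overlaps with SP-HT. The points of *Chrna4* and *Chrnb2* lie less close to a line (r = 0.667).

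The other 4 relations were less close. *Chrna3* and *Chrnb4*, which with *Chrna5* form a gene cluster in mouse, had r = 0.889 (permutation p = 0.00015, adjusted p = 0.000375) and rho = 0.832 (permutation p = 0.00139, adjusted p = 0.00347) over 12 samples, and r = 0.828 without LP-NT replicates 01 and 03. LP-NT lay apart from the other groups in *Chrna3*, so the relation within groups is the one to read. As deviations from the group means r was 0.640 (permutation p = 0.0239, adjusted p = 0.0399) and rho 0.587 (permutation p = 0.0485, adjusted p = 0.0808). The permutation shuffled all 12 deviations freely and made no allowance for the group means removed. Its p-values for deviations, here and wherever else they are given, therefore tend to be too small. Whether this relation passes the threshold within groups cannot be read from them. Within the 8 samples of the short photoperiod, chosen after seeing the data, r was 0.658 (permutation p = 0.0941, adjusted p = 0.157). *Chrna5*, the third gene of that cluster, had r = 0.431 with *Chrna3* (permutation p = 0.152, adjusted p = 0.152) and rho = 0.329 (permutation p = 0.298, adjusted p = 0.298), and r = -0.04 without LP-NT replicates 01 and 03. *Chrna5* with *Chrnb4* had r = 0.606 (permutation p = 0.0326, adjusted p = 0.0408) and rho = 0.413 (permutation p = 0.183, adjusted p = 0.229). That relation rested on single samples, with r = 0.432 (permutation p = 0.217, adjusted p = 0.271) without LP-NT replicate 01 and SP-NT replicate 19, and r = 0.204 without LP-NT replicate 01 alone (adjusted p = 0.692 by the permutation test). *Chrna4* and *Chrnb2*, whose products are the main partners in the brain, had r = 0.667 (permutation p = 0.0238, adjusted p = 0.0396) and rho = 0.783 (permutation p = 0.00382, adjusted p = 0.00637). As deviations from the group means r was 0.781 (permutation p = 0.00367, adjusted p = 0.00917) and rho 0.783 (permutation p = 0.00402, adjusted p = 0.010). Without LP-NT replicate 05 and SP-NT replicate 38, the 2 lowest in *Chrna4*, the relation over the other 10 samples did not pass (r = 0.547, permutation p = 0.0925, adjusted p = 0.154).

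Likeness of pattern over the 12 samples is given for the 6 subunits with the highest mean CPM, as a description. The 3 genes most like *Chrnb2* had r between 0.937 and 0.943, those most like *Chrna4* between 0.946 and 0.950 and those most like *Chrna7* between 0.842 and 0.879. *Per3*, a clock gene of the period family, was the record most like *Chrna3* (r = 0.922) and most like *Chrnb4* (r = 0.972) among 12903 genes. *Chrnb4* was second in likeness to *Chrna3*. These values hold the difference between the photoperiods, since *Per3* had 29.7 ± 5.29 CPM in LP-NT and 45.9 ± 5.21 CPM in SP-NT (SD, n = 4 each, log2(FC) = 0.62, SE 0.126, edgeR adjusted p = 0.437) with no overlap of these groups. The paper, with DESeq2, lists *Per3* as upregulated in short photoperiod with high significance. The record was named by its match to the paper's values, so the shared direction is no separate evidence. As deviations from the group means, *Per3* had r = 0.717 with *Chrna3*, at rank 110 of 12903 genes, and r = 0.918 with *Chrnb4*, at rank 11. Only *Per3* reached r over 0.9 with *Chrna3*, and 4 genes reached it with *Chrnb4*, while none reached it with *Chrna7*, all over the 12 samples.

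Sex, which was not used to pick the subunits, was compared over all 12 samples with the group as a covariate. None of the 10 subunits passed the threshold between males and females (edgeR adjusted p between 0.869 and 0.996), with log2(FC) from -0.19 for *Chrna5* to 0.32 for *Chrna2*. None of 16380 genes passed in this fit (748 at unadjusted p under 0.05, of which none was a subunit), while DESeq2 called 13. Without SP-NT replicate 19 there were 9 of 16324, 0.0551%, again with none of the subunits (adjusted p between 0.952 and 0.982).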

How the data were processed

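Per the study's methods, reads of all samples were trimmed (Trim Galore 0.6.6) and assembled de novo, and transcripts were assigned to mouse GeneIDs (GRCm39 proteome) by best protein hit. Reads were mapped with Bowtie 1.3.0, and the authors deposited the RSEM 1.3.1 expected counts, not normalized, with TPM and effective length for 17191 GeneIDs per sample. A GeneID can join isoforms and paralogs. The deposited TPM were used for levels between genes, and the deposited effective lengths, in bases, for transcript mix. Members were chosen by GeneID, and members and lists were chosen with earlier results of these data known. All 10 are named in every comparison.

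Expected counts were rounded. A gene needed a sum of 10 counts in the 8 samples compared. Groups were tested with edgeR 4.0.16 (TMM, quasi-likelihood test, Benjamini-Hochberg, threshold 0.05). The SE is the size of log2(FC) divided by the root of F, and 95% intervals use the t quantile at the degrees of freedom of that test. The main test replaced the DESeq2 of the study, which was an alternative (1.42.0). Lengths were tested with limma 3.58.1 for records joining several transcripts, at a minimum mean count of 50. A pseudocount of 0.01 was added to TPM and a prior count of 2 to log2 CPM. Relations used 100000 resamples (scipy 1.17.1), with Pearson's r and Spearman's rho. The tests across genes were tested on simulated data. With 4 hamsters a group, edgeR recovered 94.0% of simulated 2-fold changes for photoperiod over 16128 genes and 94.0% for torpor over 16123 genes, and 58.2% and 65.7% of 1.5-fold changes. The changed genes were drawn at random among those with a mean of at least 50 counts. These shares do not carry over to subunits with a wide spread between hamsters, namely *Chrnb3*, *Chrna6*, *Chrna2* and *Chrna5*.

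The deposited files pair no names with GeneIDs. *Avp*, *Trh*, *Pomc*, *Per3* and *Rbm3-ps* were named by finding the GeneID whose values in DESeq2 with length normalization equal those in the study's tables, within rounding. The sign for torpor was left out of that match, so for *Rbm3-ps* the size of the change is no independent evidence and only its sign was unused. Lists for other nicotinic subunits, acetylcholine synthesis, muscarinic receptors, chaperones, serotonin-gated channels and other tissues were not analysed here, since their GeneIDs could not be named. Replicates were separate hamsters, and no pair of samples in a group agreed within sampling noise (chi-square per degree of freedom at least 6.79).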

Additional observations from a re-analysis of the deposited data

Results flagged for a closer look

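In 60 groups of 4 samples (10 subunits, 3 groups, CPM and effective length), 5 held a sample whose gap to the nearest of the others, relative to the group's range, was over Dixon's 95% critical value. Chance gives this in about 1 in 20 groups. *Chrna3* in SP-NT replicate 19 was 22.1 CPM, while the 3 others lay between 24.2 and 24.4 CPM. *Chrna5* in LP-NT replicate 01 was 1.36 CPM, with the others between 3.19 and 3.56 CPM. The effective length of *Chrnb1* was 760 bases in SP-HT replicate 33 and between 1223 and 1278 bases in the others. That of *Chrna2* was 884 bases in SP-NT replicate 36, with 1147 to 1172 bases in the others. That of *Chrnb3* was 4540 bases in SP-NT replicate 37, beside 4591 to 4596 bases in the others.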

How the results depend on the processing

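Across 821 alternatives for 62 results, 683 were labelled the same as the main result. For a tested value this means the same direction and side of the threshold. For a count of genes, subunits or pairs it means a count equal or close to the main one. With DESeq2, 33 genes and 2 subunits (*Chrna3* and *Chrnb4*) were called for photoperiod, 1017 genes for SP-HT against SP-NT, 706 for SP-HT against LP-NT and 13 for sex. An offset for effective length gave 147 genes for SP-HT against SP-NT, and 103 genes and 1 subunit for SP-HT against LP-NT. Sex as a covariate gave 242 genes for SP-HT against SP-NT, with reversed log2(FC) of -0.14 for *Chrna6* and -0.12 for *Chrnb3*, and 1 subunit for SP-HT against LP-NT. All 12 samples in 1 fit gave 612 genes for SP-HT against LP-NT. A minimum mean count of 10 gave 9 genes with changed length in SP-HT against SP-NT. The relation of *Chrna5* with *Chrnb4* was r = 0.561 (adjusted p = 0.0684 by the permutation test) as deviations from group means and 0.432 without the 2 farthest samples, where *Chrna3* with *Chrna5* reversed to -0.035 and *Chrna4* with *Chrnb2* was 0.547. In the 8 short-photoperiod samples, chosen after seeing the data, r was 0.658 for *Chrna3* with *Chrnb4*, -0.10 for *Chrna3* with *Chrna5*, 0.138 for *Chrna5* with *Chrnb4* and 0.778 for *Chrna4* with *Chrnb2*. The cause of these changes was not tested.

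On leaving out each sample in turn, 5 to 8 genes were called for photoperiod, 104 to 318 for SP-HT against SP-NT, 55 to 200 for SP-HT against LP-NT and 0 to 9 for sex, with fewer samples in each fit. The lowest counts were those without SP-NT replicate 38 (104) and SP-HT replicate 26 (55). Subunits called in SP-HT against LP-NT numbered 1 to 2. Genes with changed length numbered 0 to 2, 0 to 7 and 1 to 10 in the 3 comparisons, and neighbour pairs that differed in level 2 to 3. The log2(FC) for photoperiod ranged from -0.0026 to 0.35 for *Chrna5*, from -0.47 to 0.056 for *Chrna6* and from -0.59 to 0.12 for *Chrnb3*. For SP-HT against SP-NT it ranged from -0.22 to 0.43 for *Chrna6*, from -0.045 to 0.15 for *Chrna7*, from -0.0079 to 0.062 for *Chrnb2* and from -0.29 to 0.57 for *Chrnb3*. For SP-HT against LP-NT it ranged from -0.36 to 0.27 for *Chrna6* and from -0.43 to 0.30 for *Chrnb3*. The log2 length change of *Chrnb1* for photoperiod ranged from -0.049 to 0.0088, and the log2 TPM difference of *Chrna2* over *Chrna7* from -0.021 to 0.22. The r of *Chrna4* with *Chrnb2* ranged from 0.556 to 0.784 and that of *Chrna5* with *Chrnb4* from 0.204 to 0.680.

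No paired analysis was possible because every library came from a separate hamster, and a replicate number shared between groups does not mark a pair. The planned relations of *Chrna3*, *Chrnb4*, *Chrnb3* and *Chrna6* with sums of habenula and catecholamine markers were not run, since those markers could not be named. *Chrna5* and *Chrnb1* had at most 106 and 163 counts in a sample, which limits their precision more than that of the other subunits.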
